A study of Homo sapiens with 4 samples.

Results

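The 10 genes described here are the transcription factor genes SNAI1, SNAI2, ZEB1, ZEB2, TWIST1 and TWIST2 and the cell adhesion, cytoskeletal and matrix genes CDH1, CDH2, VIM and FN1, out of 19970 protein-coding genes in GENCODE 44. They were chosen by name as genes of the epithelial-mesenchymal transition, and every MTF-1 peak that touched one of them or the 50 kb on either side was taken. MTF-1, the transcription factor that binds metal response elements, was mapped by CUT&RUN, in which an antibody directs a nuclease to a bound protein and the released DNA is sequenced. The cells were MDA-MB-231, an established human breast cancer line. Control cells (2 libraries) received no treatment, and cadmium cells (2 libraries) came from a culture selected by serial passaging in CdSO4 that began at 5 µM and was then held at 10 µM for at least 10 passages. The cadmium cells are thus a long-exposed, selected population and not cells taken shortly after a dose. The libraries of each condition were merged before peak calling, so each condition is 1 list of peak positions with no height, count or score. Depth is unknown, the spread between replicates cannot be measured, and no value below has a replicate check or a p-value. Peak lists hold no expression values, so the identity of the cells could not be checked against marker genes.

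In the epithelial-mesenchymal transition, cells bound to their neighbours by E-cadherin lose those contacts and take on a motile form. Factors of the SNAI and ZEB families bind E-box sequences and repress CDH1, the E-cadherin gene, and TWIST factors also bind E-boxes and favour the same switch. CDH2 (N-cadherin), VIM (the intermediate filament protein vimentin) and FN1 (the matrix protein fibronectin) mark the mesenchymal state. MDA-MB-231 cells are known for a mesenchymal form with little E-cadherin.

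The windows of the 10 genes span 1965514 bp in all and do not overlap. They held 78 of the 69299 control peaks and 59 of the 60130 cadmium peaks. A control peak that shared no base with any cadmium peak is called lost, a cadmium peak that shared no base with any control peak is called gained, and the rest are shared. Of the 78 control peaks 25 were lost, which is 32.1% (95% Wilson interval 22.7 to 43.0%, counting error only), against 27.9% of all control peaks. Of the 59 cadmium peaks 5 were gained, which is 8.47% (3.67 to 18.4%), against 15.1% of all cadmium peaks. The interval of each share takes in the value of the whole list. Windows of protein-coding genes, with a peak counted once per window, give another background. Where both lists had a peak within 1 kb of the start (65.8% of genes), 19.9% of control peaks were lost and 11% of cadmium peaks gained. Where neither had one (29.8%), these shares were 24.7 and 18.7%. The lost share of 32.1% lies above both lost values, and its interval takes in 24.7% but not 19.9%. The interval of the gained share takes in 11% but not 18.7%. With flanks of 100 kb the gained share was 17.0% (15 of 88), above the whole list and not below it. Peaks covered 134209 bp of the windows in the control list and 98141 bp in the cadmium list, a difference of -26.9%, beside -30.3% over the genome.

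The 25 lost peaks were spread unevenly over the genes. CDH1 held 9 of them and TWIST1 held 5. Without both genes, a split chosen after the values were seen, 11 of 55 control peaks (20.0%) were lost, and the difference in covered bases was -15.1%. That lost share is below the 27.9% of the whole list. It is close to the 19.9% in windows of protein-coding genes with a peak at the start in both lists. A lost peak was present at 9 of the 10 genes, ZEB2 being the exception, where 62.5% of protein-coding genes have one. A gained peak was present at 4 genes, ZEB1, TWIST2, CDH1 and CDH2, where 45.5% of protein-coding genes have one.

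**Figure D1:**
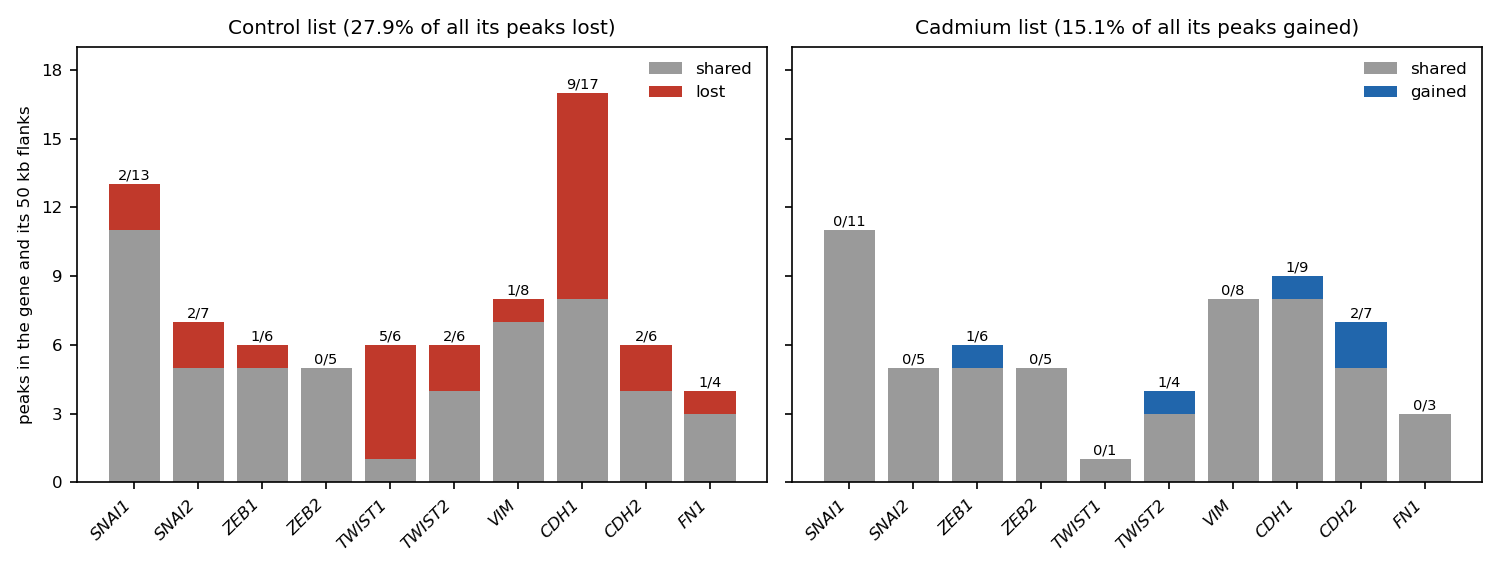
Number of MTF-1 peaks (y axis) touching each gene or its 50 kb flanks (x axis) in the control list (left) and the cadmium list (right), 1 list per condition. Labels give unique over all peaks, with CDH1 at 9 lost of 17 and TWIST1 at 5 lost of 6.

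Per 100 kb of window, the median over the 10 genes was 4974 covered bp in the control list and 3192 bp in the cadmium list, against 6856 and 4947 bp over all protein-coding genes. SNAI1 and VIM were the most densely covered genes in both lists. ZEB2 was the least covered in the control list and TWIST1 in the cadmium list. Of the 10 genes, 8 had fewer covered bases in the cadmium list, which is also the case for 72.1% of protein-coding genes, and 2 (ZEB1 and ZEB2) had more. With flanks of 10 kb only 5 of the 10 had fewer and 5 had more, since SNAI1, SNAI2 and VIM turned, where 63.0% of protein-coding genes had fewer. The median difference over the 10 genes was -18.9%, against -25.2% over the 18633 protein-coding genes with covered bases in the control list.

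**Figure D2:**
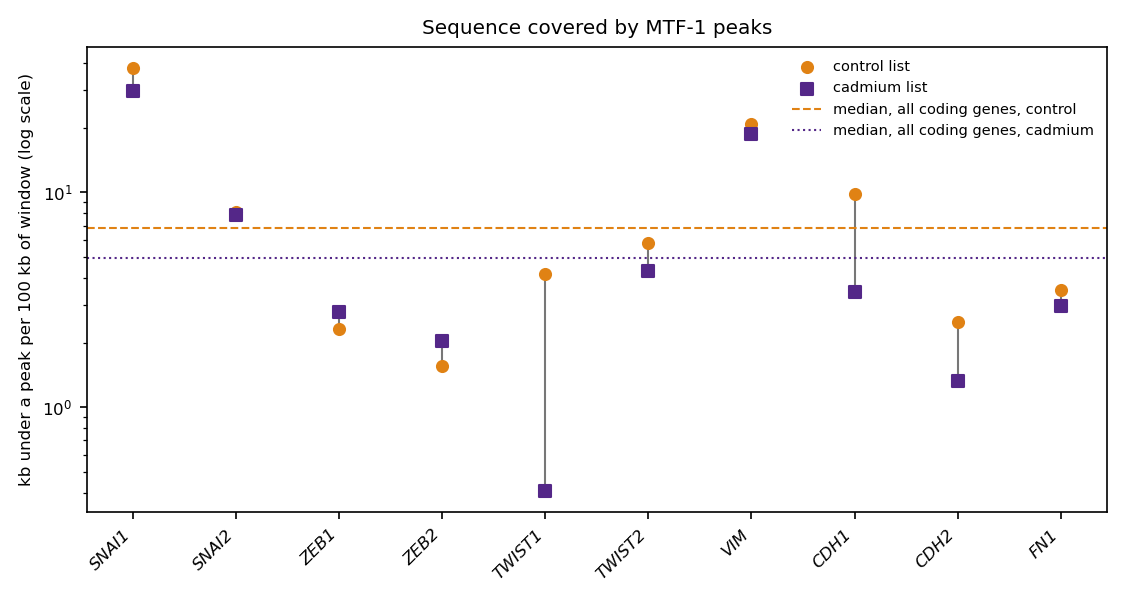
Sequence under MTF-1 peaks in kb per 100 kb of window (log scale) for each gene in the control list (circles) and the cadmium list (squares), with the medians over all protein-coding genes as lines. The symbols lie farthest apart for TWIST1 and CDH1, and the cadmium square lies above the control circle at ZEB1 and ZEB2 alone.

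Whether MTF-1 was called at the start of these genes was the same in both lists. A peak lay within 1 kb of the start of the Ensembl canonical transcript at SNAI1, SNAI2, ZEB1, ZEB2, VIM and FN1 in both lists, and at TWIST1, TWIST2, CDH1 and CDH2 in neither. The background is 68.8% of protein-coding genes in the control list and 67.1% in the cadmium list, and only 3.09% of protein-coding genes had a start-site peak in the control list alone and 1.32% in the cadmium list alone. At the 4 genes without one, the nearest control peak was 4308 bp from the start at CDH1, 15715 bp at TWIST2, 26870 bp at CDH2 and 38036 bp at TWIST1. The nearest cadmium peak was 4492, 15915, 27070 and 139236 bp away, so that the distance differed by at most 1 bin of 200 bp at CDH1, TWIST2 and CDH2 and by far more at TWIST1.

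At the 6 genes with a start-site peak, its width differed between the lists in either direction. It was wider in the cadmium list at SNAI1 (1799 bp in control, 10799 bp in cadmium), SNAI2 (1999 and 2399 bp) and ZEB1 (3799 and 4799 bp). It was narrower in the cadmium list at ZEB2 (799 and 599 bp), VIM (8599 and 7399 bp) and FN1 (3999 and 3799 bp). Among the 13131 protein-coding genes with a start-site peak in both lists, 25.8% had the wider peak in the cadmium list, 61.2% in the control list and 13.0% had equal widths. A change of 200 bp, as at ZEB2 and FN1, is 1 bin of the peak caller.

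**Figure D3:**
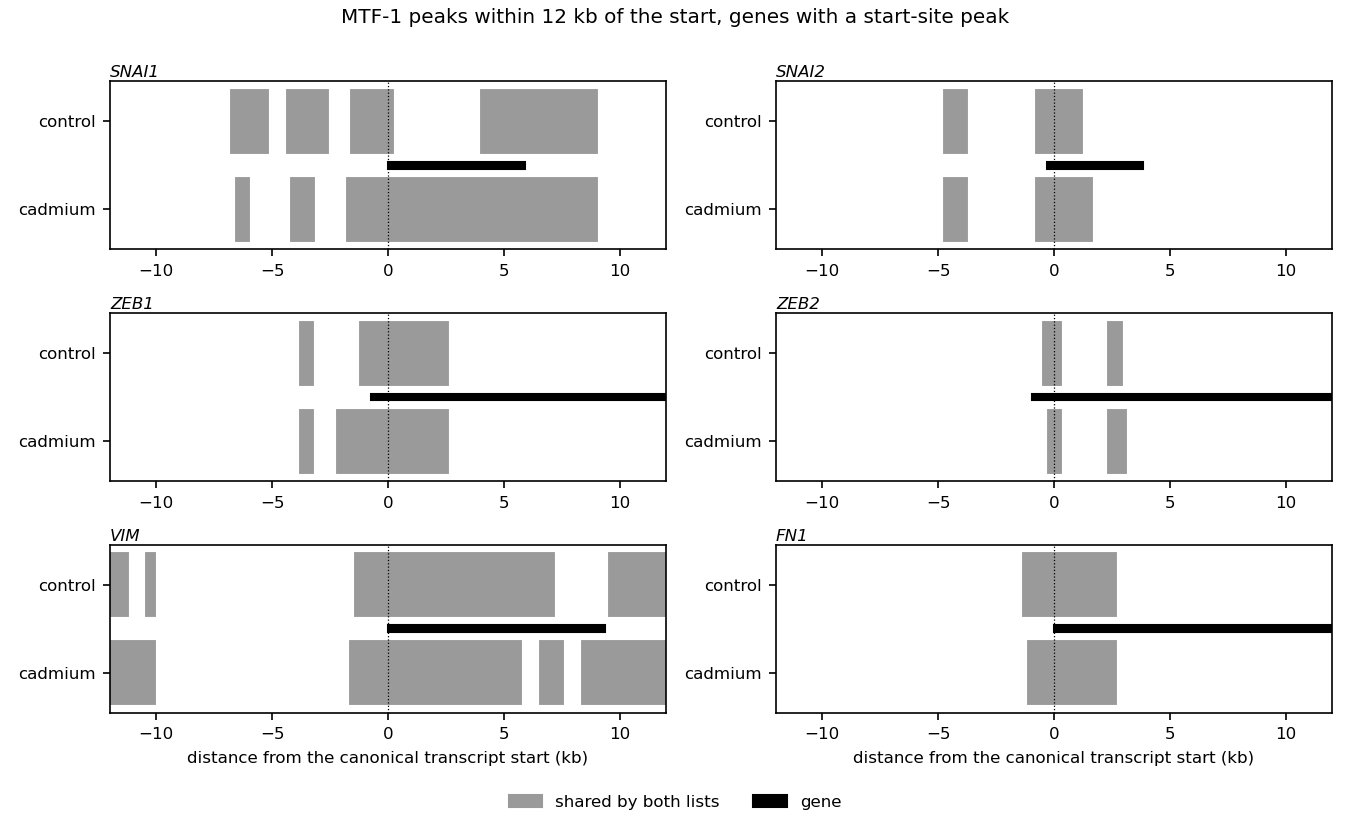
MTF-1 peaks within 12 kb of the canonical transcript start (x axis, kb, transcription to the right) at the 6 genes with a start-site peak, control list above and cadmium list below the gene (black). At SNAI1 the 10799 bp cadmium peak reaches over the 1799 bp and 4999 bp control peaks and the gap between them.

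SNAI2, which encodes the E-box repressor Slug, differed least between the lists in the total of covered bases. Its covered bases were 8393 bp in control and 8195 bp in cadmium (-2.36%). The start-site peak was chr8:48920201-48922199 in control and began 400 bp further into the gene body, at 48919801, in cadmium. The widest control peak, chr8:48901401-48905199 downstream, was matched by a cadmium peak of 2999 bp. Of 7 control peaks 2 were lost, each 199 bp wide, which is the smallest width a peak can have, and none of the 5 cadmium peaks was gained.

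SNAI1 encodes the related repressor Snail. Its start-site peak was chr20:49981401-49983199 in the control list, over exon 1 and intron 1, and a separate control peak at chr20:49987001-49991999 covered exon 3 and sequence past the gene. In the cadmium list 1 peak, chr20:49981201-49991999, ran across the whole gene and took in both. Over the window, however, covered bases were 40074 bp in control and 31389 bp in cadmium (-21.7%), where several peaks upstream and downstream of the gene were narrower in cadmium and 2 of the 13 control peaks were lost. Both lost peaks, each 2199 bp wide, lay downstream, closest to the start of the noncoding gene TRERNA1. The widest control peak, 8599 bp at chr20:50026801-50035399, overlapped a cadmium peak of 9999 bp. Another coding gene, RNF114, starts inside the window and had a start-site peak in both lists.

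ZEB1 encodes a zinc finger E-box repressor. It had 7194 covered bp in control and 8594 bp in cadmium (+19.5%), with 6 peaks in each list. The start-site peak was chr10:31318001-31321799 in control and chr10:31317001-31321799 in cadmium, so that all of the added 1000 bp lay upstream. The RefSeq promoter (GRCh38.p14, 250 bases before the start) held 2 E-boxes, the letters CAGGTG or the reverse complement CACCTG, which 17.5% of the 35116 promoters in the table hold at least once. They are shown because ZEB1 was the sole gene of the 6 matched in that table whose promoter held any of the motifs searched. Capitals mark the E-box, and both lines read the plus strand, at chr10:31318966-31318995 and chr10:31319119-31319148.
ZEB1 promoter, E-box 1: ccccaccaCACCTGaggaaaacttttccct
ZEB1 promoter, E-box 2: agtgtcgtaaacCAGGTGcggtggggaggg

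Inside ZEB1, 1 peak was lost in intron 1 (chr10:31382001-31382399, 399 bp) and 1 was gained in intron 4 (chr10:31508401-31509199, 799 bp). The lost peak lay 28001 bp and the gained peak 45401 bp from the nearest peak of the other list. Both held an AP-1 sequence, TGACTCA or TGAGTCA, and 120 bases around it are shown since these are the sites unique to a list in this gene. Such letters were in 41.2% of all lost and 43.1% of all gained peaks. In the windows of the genes described here, 8 of 25 lost peaks (32%) held them. So did 2 of 5 gained peaks (40%), those of ZEB1 and TWIST2. In the 500 bp around the peak centre 1 of the 5 gained peaks did (20%), against 32.6% of all gained peaks. Capitals mark the AP-1 letters, on the plus strand of GRCh38 at chr10:31382069-31382188 and chr10:31508401-31508520.
ZEB1 lost: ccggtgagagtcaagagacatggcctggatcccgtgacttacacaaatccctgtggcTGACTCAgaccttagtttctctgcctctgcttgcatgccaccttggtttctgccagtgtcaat
ZEB1 gained: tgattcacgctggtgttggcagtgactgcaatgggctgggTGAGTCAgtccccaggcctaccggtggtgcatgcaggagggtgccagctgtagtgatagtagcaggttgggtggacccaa

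ZEB2, the paralog of ZEB1, was the sole gene with neither a lost nor a gained peak. Its 5 control peaks and 5 cadmium peaks overlapped pairwise, with 3995 and 5195 covered bp (+30.0%). The start-site peak was chr2:144519801-144520599 in control and ended at 144520399 in cadmium. Most of the added bases lay downstream of the gene, where a 399 bp control peak at chr2:144358001-144358399 met a 1399 bp cadmium peak and the widest peak, chr2:144331601-144333199 over the start of the neighbouring gene GTDC1, was 1599 bp in control and 2199 bp in cadmium. Between the peak in exon 2 and the downstream end of the gene, neither list had a peak.

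TWIST1 encodes a basic helix-loop-helix factor. It had 6 peaks in the control list and 1 in the cadmium list, with 8194 and 799 covered bp (-90.2%). Of the protein-coding genes with covered bases in control, 2.13% had a difference as low, and 2.51% of those with control peaks had as high a share of them lost. By count, at least 5 lost peaks were present at 6.18% of protein-coding genes. All 6 control peaks lay downstream of the start, by 38336 to 139336 bp at their centres, and outside the canonical transcript. Of these, 3 lay in the annotated gene, in the reach of longer transcripts, and the other 3 lay downstream of it. The closest start of these peaks belonged to the pseudogene NPM1P13 or an unnamed gene and not to TWIST1. The widest lost peak was chr7:19009201-19011599 (2399 bp), and the 5 lost peaks lay 15601 to 100601 bp from the nearest cadmium peak. GC content of the lost peaks was 36.2 to 40.9%. The lost peak nearest to the TWIST1 start, 599 bp at chr7:19079001-19079599, is shown by 120 bases on the plus strand, chr7:19079302-19079421. Capitals mark the forkhead letters (ATAAACA or GTAAACA, with a T also taken for the C, on either strand). Of the 5 lost peaks 4 held these letters, against 60.2% of all lost peaks. Over the 10 windows 14 of 25 lost peaks held them (56%). In the 500 bp around the peak centre 8 of 25 did (32%), against 41.1% of all lost peaks.
TWIST1 lost: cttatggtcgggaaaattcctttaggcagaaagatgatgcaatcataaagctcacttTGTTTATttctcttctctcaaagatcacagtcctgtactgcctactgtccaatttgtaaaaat

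TWIST2, a close relative of TWIST1, had 6 control and 4 cadmium peaks, with 9394 and 6996 covered bp (-25.5%), close to the median of all protein-coding genes. All 4 unique or shared control and cadmium sites inside the gene lay in intron 1. A shared peak at chr2:238863801-238864999 was followed by 2 lost peaks, chr2:238866601-238867799 and chr2:238868601-238870199, and 1 gained peak lay further into the intron at chr2:238895801-238896399. The lost peaks were 1601 and 3601 bp from the nearest cadmium peak. The widest control peak, 3599 bp at chr2:238947401-238950999 downstream, was 1999 bp in cadmium, and a pair of control peaks of 1399 and 399 bp was spanned by 1 cadmium peak of 3399 bp. The gained peak is shown around its AP-1 letters (capitals, plus strand, chr2:238896077-238896196).
TWIST2 gained: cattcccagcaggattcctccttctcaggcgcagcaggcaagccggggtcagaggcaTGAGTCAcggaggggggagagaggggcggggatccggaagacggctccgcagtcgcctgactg

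CDH1, the E-cadherin gene and the target of these repressors, had the most peaks of the 10 genes in the control list. It had 17 control peaks and 9 cadmium peaks, with 19383 and 6791 covered bp (-65.0%). Of the 17 control peaks 9 were lost, and all 9 lay inside the gene. At least 9 lost peaks were present at 1.00% of protein-coding genes, and 7.51% of those with control peaks had as high a share lost. Of the protein-coding genes with covered bases in control, 7.89% had a difference as low. By contrast, the peaks outside the gene were nearly the same in the lists. The 3 upstream peaks and the downstream peak over the start of TANGO6 were shared, at widths that differed by at most 400 bp.

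Intron 2 of CDH1, the longest intron of the gene, is described because its peaks were seen to carry most of this difference. It spans 63258 bp (chr16:68738412-68801669) and held 10 control peaks, of which 7 were lost, and 3 cadmium peaks, all shared. Covered bases in the intron were 12190 bp in control and 1597 bp in cadmium (-86.9%). The lost peaks nearest to the start were chr16:68741601-68742999 and chr16:68744001-68747199, the latter the widest in the window at 3199 bp. The other lost peaks in the intron were chr16:68756201-68756599, chr16:68776801-68777399, chr16:68778601-68780399, chr16:68781801-68783199 and chr16:68800401-68800799. The remaining lost peaks were chr16:68802201-68803399 in intron 3 and chr16:68810601-68811999 over exon 7. The 3 shared sites of the intron were narrower in cadmium too, at 999, 999 and 999 bp in control and 799, 399 and 399 bp in cadmium.

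The lost peaks of CDH1 held E-boxes in 8 of 9 cases, with a median width of 1399 bp, against 53.6% of all lost peaks, whose median width was 999 bp. Wider peaks have more letters in which to find a motif, so the shares are not matched. A pair of stretches, picked from the 9 lost peaks, is shown because each holds 2 E-boxes and an AP-1 sequence within 120 bases. An AP-1 sequence was in 4 of these 9 peaks, against 41.2% of all lost peaks. A relation of these letters to repression of CDH1 was not tested. Capitals mark E-boxes and AP-1 letters and, in the second line, a forkhead match (TATTTAC). Both read the plus strand, at chr16:68756333-68756452 and chr16:68779005-68779124.
CDH1 lost, intron 2, a: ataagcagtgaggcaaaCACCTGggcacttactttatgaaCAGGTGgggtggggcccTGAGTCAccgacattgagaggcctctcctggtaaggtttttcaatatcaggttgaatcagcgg
CDH1 lost, intron 2, b: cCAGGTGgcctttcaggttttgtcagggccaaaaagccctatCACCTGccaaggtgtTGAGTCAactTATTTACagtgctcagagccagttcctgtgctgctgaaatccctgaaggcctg

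The single gained peak of the window, chr16:68847401-68847799, was 399 bp wide, lay downstream of CDH1 and was closest to the start of TANGO6.

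**Figure D4:**
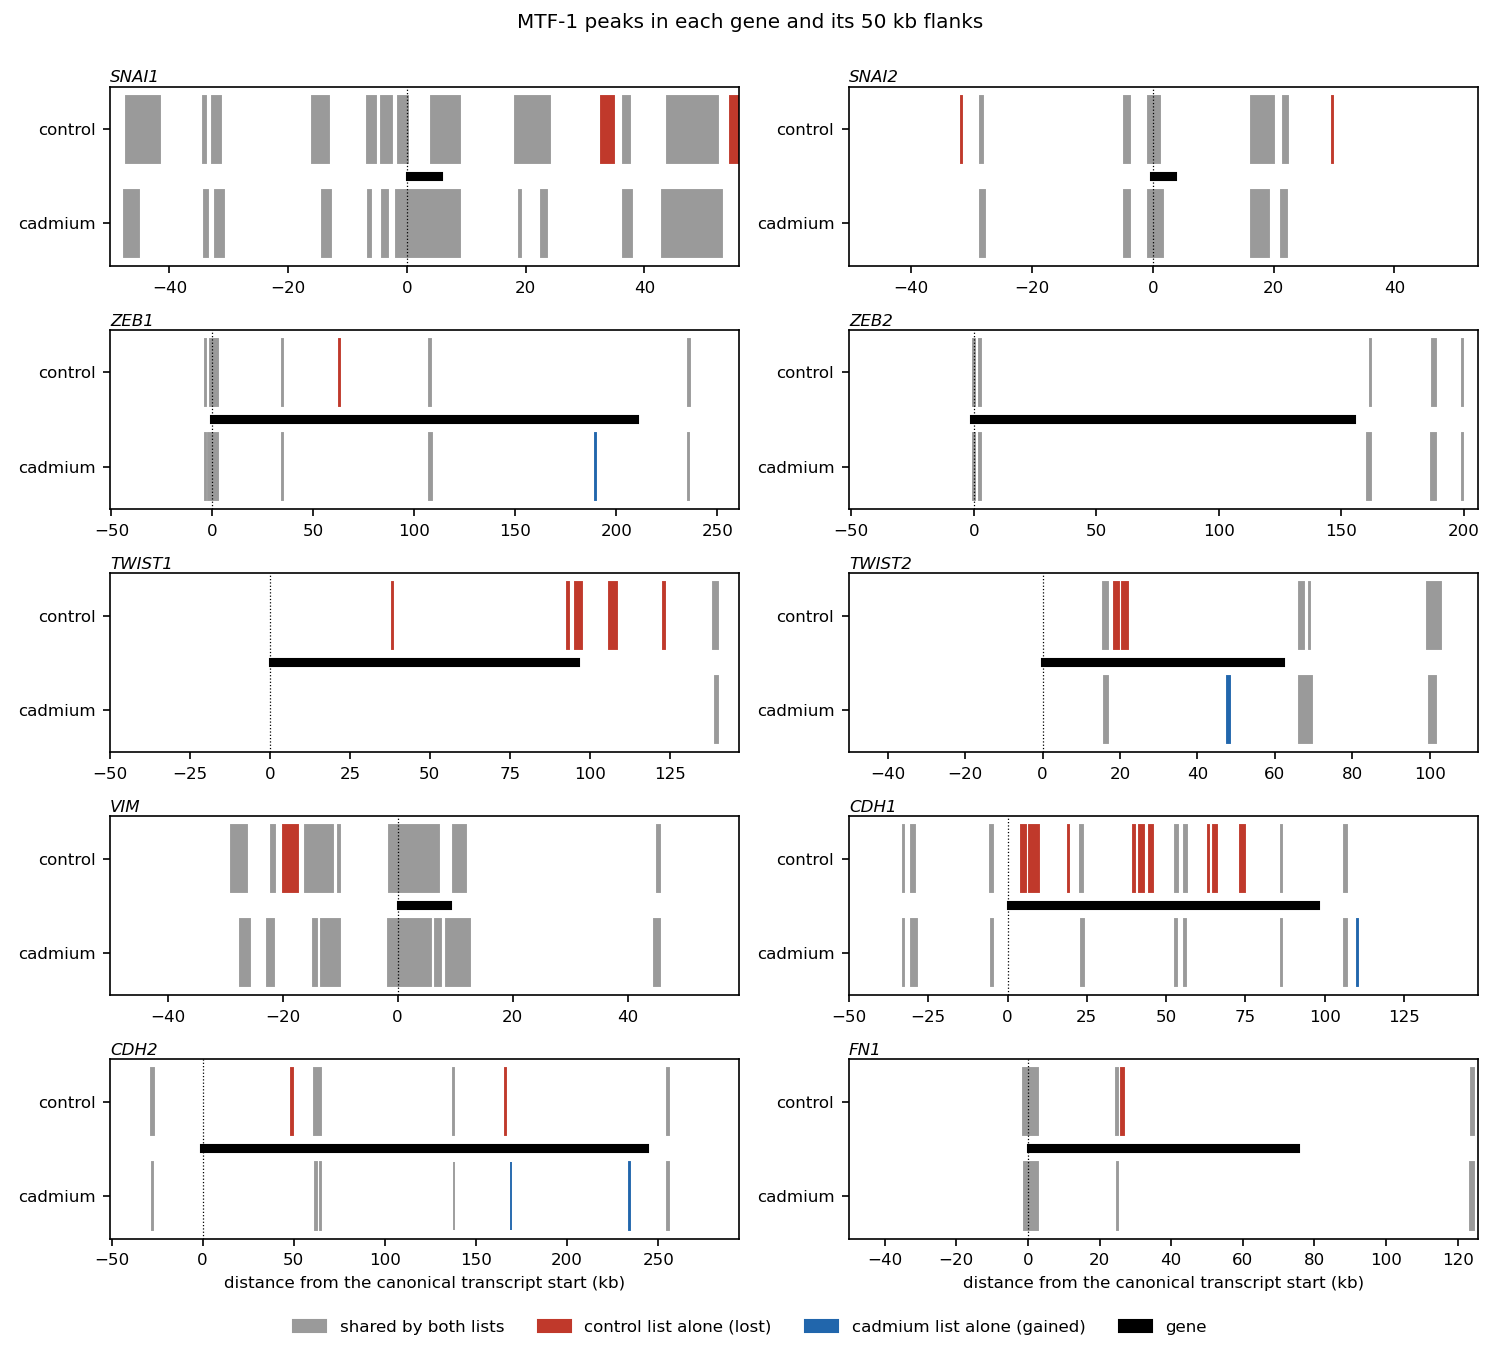
MTF-1 peaks in each gene and its 50 kb flanks by distance from the canonical transcript start (x axis, kb, transcription to the right, a scale per gene), control list above and cadmium list below the gene (black). Peaks are drawn to scale with a thin outline that keeps the narrowest visible, and lost peaks (red) crowd inside CDH1 and downstream of the TWIST1 start, away from the dotted start lines.

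CDH2, which encodes N-cadherin, had 8594 covered bp in control and 4593 bp in cadmium (-46.6%), with 6 and 7 peaks. It had as many gained as lost peaks, 2 of each, as ZEB1 had 1 of each. The lost peaks were chr18:28010601-28010999 in intron 4 and chr18:28127801-28128399 in intron 2. The gained peaks, each 399 bp wide, were chr18:28007801-28008199 in intron 5 and chr18:27942801-27943199, inside the annotated gene but outside the canonical transcript. The lost peak of intron 4 and the gained peak of intron 5 lay 2401 bp apart. Most of the difference in covered bases came from a shared site in intron 2, where the widest control peak, chr18:28112001-28116199 (4199 bp), was met by a pair of cadmium peaks of 599 and 1199 bp. The gained peak of intron 5 is the one gained peak of the 5 whose closest start belongs to its own gene.

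VIM had a broad start-site peak in both lists. It was chr10:17226801-17235399 in control, over exons 1 to 7, and chr10:17226601-17233999 in cadmium, over exons 1 to 5, and a separate cadmium peak of 999 bp covered exons 6 and 7. Over the window, covered bases were 22792 and 20392 bp (-10.5%), and 1 of 8 control peaks was lost, 2599 bp wide and upstream at chr10:17208401-17210999. None of the 8 cadmium peaks was gained. The RefSeq promoter of VIM (chr10:17227991-17228240, plus strand, GRCh38.p14) is shown as the sequence under the widest start-site peak of these genes in control, and none of the letters searched was in it, so it has no capitals.
VIM promoter: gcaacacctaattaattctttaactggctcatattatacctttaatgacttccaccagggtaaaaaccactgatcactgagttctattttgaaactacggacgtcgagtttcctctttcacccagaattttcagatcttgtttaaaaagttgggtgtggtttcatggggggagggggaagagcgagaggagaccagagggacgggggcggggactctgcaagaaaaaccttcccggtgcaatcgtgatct

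FN1 had 4 control and 3 cadmium peaks, with 6196 and 5197 covered bp (-16.1%). The start-site peak was chr2:215433401-215437399 in control and ended at 215437199 in cadmium, over exons 1 to 3 in both. The single lost peak, chr2:215409201-215409999 over exons 14 and 15, lay 801 bp from the shared peak of intron 13, the shortest distance of any lost peak in the 10 windows.

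Genes with a start-site peak in both lists and genes with one in neither differed in how much of the control list was lost. The 6 genes with a start-site peak had 7 of 43 control peaks lost (16.3%, 95% Wilson interval 8.12 to 30.0%) and 88644 and 78962 covered bp (-10.9%). The 4 genes without one had 18 of 35 lost (51.4%, 35.6 to 67.0%) and 45565 and 19179 covered bp (-57.9%). Over all protein-coding genes the same split gave 19.9% and 24.7% lost and median differences of -24.3% and -28.6%. Most of the gap in the 10 genes came from CDH1 and TWIST1, since TWIST2 and CDH2 alone had 4 of 12 control peaks lost (33.3%). Peaks of 1 gene are neighbours and not independent, and no test was made of this split, which was chosen with the values in view.

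Neither list had a unique peak close to the canonical start of its gene. The lost peaks lay at least 5008 bp and the gained peaks at least 48015 bp from it, measured from the peak centre, while 11 shared peaks of each list lay within 5 kb. Counting the starts of all annotated transcripts of any gene, 4 of the 25 lost peaks were within 1 kb of one, namely those in ZEB1 intron 1 (477 bp), over FN1 exons 14 and 15 (350 bp) and over CDH1 exon 7 (783 bp), each from a start of its own gene, and a CDH1 intron 2 peak 180 bp from RNA5SP429. These distances to starts were not counted over the whole lists. The paper reports that peaks found in both conditions lay near a gene start more often than peaks unique to either. Of the control peaks inside one of the 10 genes 18 of 36 were lost, where 24.8% of control peaks inside any protein-coding gene were lost. CDH1 supplied 9 of these 18, and without it 9 of 23 were lost. Of the cadmium peaks inside one of the 10 genes 4 of 24 were gained, where 12.6% of those inside any protein-coding gene were gained. Joined into sites, the peaks of both lists formed 80 sites, of which 50 were shared, 25 lost and 5 gained. Of the shared sites 24 were covered over more bases in control, 18 in cadmium and 8 equally, and their covered bases were 104347 and 95546 bp (-8.43%). Sites were not joined over the whole lists, so these values have no background beside them. The lost peaks had a median width of 1199 bp, equal to that of the shared control peaks in these windows, whereas over the whole control list lost peaks (999 bp) were narrower than shared ones (1599 bp).

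Sequence motifs in the peaks were searched as letters on both strands over the whole peak. E-box here means CAGGTG or its reverse complement CACCTG alone, so any other E-box letters were not counted. Among control peaks of the 10 windows 67.9% held an E-box, 53.8% an AP-1 sequence, 64.1% a metal response element core (TGCACNC or TGCGCNC) and 52.6% a forkhead sequence, against 65.1, 48.9, 62.0 and 59.8% of all control peaks. Among cadmium peaks the shares were 59.3, 61.0, 61.0 and 44.1%, against 60.0, 47.6, 57.3 and 47.3% of all cadmium peaks. Of these 8 shares, the AP-1 share of cadmium peaks was the one whose Wilson interval (48.3 to 72.4%) did not take in the value of the whole list. In the 500 bp around the peak centre that share was 32.2%, against 28.3% of all cadmium peaks. AP-1 sequences were in 8 of the 25 lost control peaks (32.0%) and in 34 of the 53 shared ones (64.2%), against 41.2 and 51.9% over the whole control list. Median widths were equal, but the 25 lost peaks held 30575 bp in all and the 53 shared ones 104347 bp. The sequence searched was thus not matched. In the 500 bp around the centre, AP-1 sequences were in 6 of 25 lost (24.0%) and 19 of 53 shared peaks (35.8%), where the whole control list gave 24.5% for both classes.

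**Figure D5:**
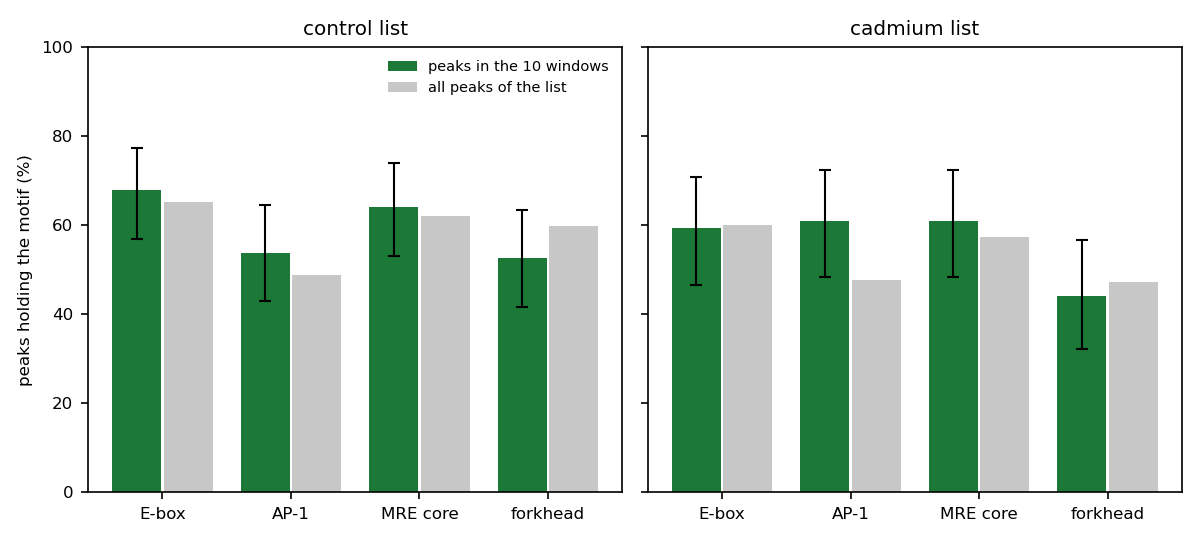
Percent of MTF-1 peaks holding each motif anywhere in the peak, for peaks in the 10 windows (green, bars of 95% Wilson intervals) and all peaks of the list (grey), control list left and cadmium list right. Green and grey bars lie close together, with the widest gap at AP-1 in the cadmium list (61.0 against 47.6%).

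A wider list of 49 genes of the same transition, chosen by role and without the 10 genes, was counted in the same way. Epithelial genes such as claudins and keratins had 44 of 172 control peaks lost (25.6%) and 11 of 144 cadmium peaks gained (7.64%). Regulators that favour the epithelial state, among them GRHL2 and the microRNA genes of the miR-200 family, had 18 of 78 lost (23.1%) and 8 of 64 gained (12.5%). Mesenchymal genes such as collagens had 19 of 110 lost (17.3%) and 10 of 100 gained (10.0%). Regulators that favour the mesenchymal state had 21 of 58 lost (36.2%) and 3 of 43 gained (6.98%). In windows of protein-coding genes, 11% of cadmium peaks were gained where both lists had a start-site peak and 18.7% where neither had. The matching lost shares were 19.9 and 24.7%. The gained shares of the 4 groups lay below the 15.1% of the whole list, but on both sides of 11%. The lost share was above the 27.9% of the whole list in the last group alone. That rested on HMGA2, a chromatin protein gene with 12 of 20 control peaks lost, without which the group had 9 of 38 lost (23.7%), a split chosen after the values were seen. The median difference in covered bases was -26.6, -22.1, -23.9 and -51.9% in the same order, against -25.2% over protein-coding genes with covered bases in control. Fewer bases were covered in cadmium at 16 of 17, 9 of 11, 11 of 13 and 5 of 8 genes. The share over all protein-coding genes was 72.1%. In the last group GSC and TCF4 had no peak in either list. Genes whose windows overlap share peaks, so the 17 epithelial genes fill 15 separate windows and the 11 epithelial regulators 8, with MIR200A, MIR200B and MIR429 in 1 and MIR200C and MIR141 in another. Peaks were counted once a group, but genes with fewer covered bases were not. The window of CDH3, an epithelial gene of this list, overlaps that of CDH1. Its 8 control peaks in common with CDH1, 4 of them lost, are thus also among the peaks of the 10 genes.

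Start-site status differed between the lists at 3 of the 49 genes, each with a peak in control alone. Over all protein-coding genes 3.09% had one in control alone and 1.32% in cadmium alone. GRHL2, a factor that maintains epithelial gene expression, had 7 of 15 control peaks lost and its nearest cadmium peak 1161 bp from the start. COL1A2, a chain of type I collagen, had 2798 covered bp in control and 199 bp in cadmium. CDH11, a mesenchymal cadherin, had 5597 and 598 bp. Per 100 kb of window, the greatest shortfall of each group in cadmium was at LLGL2 (31427 bp in control, 12250 bp in cadmium), MIR141 (39654 and 21675 bp), TAGLN (23491 and 8690 bp) and TCF3 (39622 and 18551 bp). The greatest excess was at EPCAM (8417 and 10663 bp), ESRP2 (11728 and 20258 bp), TNC (8351 and 9157 bp) and SNAI3 (19840 and 21310 bp). These values are for whole windows, in which other coding genes can start, 7 at MIR141 and 3 at TAGLN. Inside the gene, covered bases in control and cadmium were 15915 and 4917 bp at LLGL2 and 14722 and 3813 bp at TCF3. They were 1029 and 694 bp at TAGLN and 95 bp in both lists at MIR141. For EPCAM, ESRP2, TNC and SNAI3 they were 5038 and 5238, 4501 and 7301, 6206 and 9604, and 2306 and 2905 bp.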

How the data were processed

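MTF-1 CUT&RUN was carried out in MDA-MB-231 cells with 2 control and 2 cadmium libraries. Adaptor trimming and Bowtie2 alignment against hg38 were done by the authors, who pooled replicates with SAMtools 1.8 and ran Epic2, which joins bins of 200 bp, at its default settings. The deposited lists used here give positions in base pairs and a constant last column, with no count or signal. Depth is therefore unknown, and a site near the caller's threshold can enter 1 list only.

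Genes, transcripts and canonical starts came from GENCODE 44, and sequence was read from GRCh38 with pysam 0.24.0. Peaks sharing at least 1 base were called shared. Wilson intervals came from scipy 1.17.1 and figures from matplotlib 3.10.9. The lost, gained and shared classes and the count of bases common to both lists were tested on simulated peaks. The other steps were not tested in that way. The members, the wider list, the motifs and the alternatives were chosen with earlier results of these data known. All 10 genes are named, with the peaks over a start, unique peaks closest to a member's start and the widest peaks. The other unique peaks named were chosen after their values were seen. From the wider list, genes whose start-site status differed and the extremes of each group are named. Promoters in RefSeq (GRCh38.p14) were matched for CDH2, FN1, TWIST2, VIM, ZEB1 and ZEB2, not for SNAI1, SNAI2, TWIST1 or CDH1.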

Additional observations from a re-analysis of the deposited data

How the results depend on the processing

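No paired analysis was possible because the replicates of each condition were merged before peak calling, and for the same reason no replicate could be left out. The lost share of 32.1% was 45.2% (19 of 42) with peaks of at least 1000 bp, where the whole control list gave 42.3%, and 48.7% (38 of 78) when a shared peak had to be covered over 50% of its length, where the whole list gave 46.2%. Leaving out CDH1 and TWIST1, an alternative chosen after seeing the data, gave 20.0% lost and -15.1% covered bases. Under the remaining alternatives (flanks of 10 and 100 kb, peaks of at least 400 bp, peaks whose closest start belongs to the gene, no other peak within 1 kb) the lost share stayed inside its interval. The gained share of 8.47% ran from 4.76% with peaks closest to the gene's own start to 17.0% with flanks of 100 kb, inside its interval but on both sides of the 15.1% of the whole list. Leaving out HMGA2, also chosen after seeing the data, took the lost share of mesenchymal regulators from 36.2% to 23.7%. The difference in covered bases of single genes turned from fewer to more in cadmium at SNAI1 (2201 bp), SNAI2 (400 bp) and VIM (1599 bp) with flanks of 10 kb, and at SNAI2 with flanks of 100 kb (400 bp), with peaks of at least 400 bp (599 bp) and with peaks closest to its start (400 bp). None of the other 7 genes turned, but the difference was 0 at TWIST2 with flanks of 100 kb and at ZEB2 and TWIST1 with peaks closest to their own start. The number of genes with a start-site peak was 6 in each list, 7 with the start of any transcript, which added CDH1, and 5 with peaks of at least 1000 bp, which left out ZEB2. Without counts, nothing could be weighted by depth.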

Other observations

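The cadherin gene CDH3, in the epithelial group of the wider list, lies next to CDH1, and its window was looked at after the values of CDH1 were seen. It held 16 control peaks, 10 of them lost, with 15984 covered bp in control and 9192 bp in cadmium. Of these control peaks 8 also lay in the window of CDH1, 4 of them lost, and of the 8 that did not, 6 were lost.

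At HMGA2, a gene of the mesenchymal regulators, also picked after its values were seen, the 20 control and 8 cadmium peaks, 12 of the former lost and none of the latter gained, covered 47780 and 11192 bp (-76.6%).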
